A study of Homo sapiens with 5 samples.

Results

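HPAF1 and SU86.86 are established human pancreatic cancer cell lines, and the comparison described here is the expression of every measurable gene in HPAF1 set against SU86.86. Each line was measured on 1 one-colour Affymetrix expression array, among 5 such arrays that also covered the lines PANC1, L3.6 and HPDE. The genes were those with a probe set, a group of probes read as 1 value, that carried a single gene symbol, and 14010 of 19775 such genes were bright enough in HPAF1, in SU86.86 or in both to be compared. Per the labels, all lines were untreated, were grown as their supplier advises and gave RNA by a column kit, and every source label reads pancreatic cancer, although HPDE is known in the field as duct epithelium immortalised from normal pancreas. No genotype, passage or harvest density was given in the labels. With 1 array per line there was no replicate of either line, so the differences below are sizes without an error or a p-value, and a difference between the cultures cannot be told apart from a difference between the lines. The arrays read bulk cultures, in which fewer cells expressing a gene and less RNA per cell cannot be told apart.

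Carcinoma of the pancreatic duct arises from an epithelium that secretes bicarbonate and mucin. Cell lines from such tumours keep this epithelial programme to different degrees. Some carry genes of the stomach and gut, which belong to the tumour class called classical, and others carry genes of mesenchymal cells such as vimentin and N-cadherin. Lines also differ in the interferon-stimulated genes that they keep switched on without infection, and in how strongly they express the machinery of DNA replication and mitosis.

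The arrays of both lines were alike in their technical readings. Median intensities were 143 in HPAF1 and 137 in SU86.86, and 13189 and 12910 genes lay above the level filter, the median of all probe sets. The 9 spike-in controls, transcripts added in fixed amounts, differed by -0.14 to 0.24 between both arrays on the log2 scale. The ratio of the 3′ to the 5′ probe set of actin, a reading of RNA integrity, was 1.08 in HPAF1 and 1.02 in SU86.86. Of 19 ribosomal protein genes, 0 were at least 2-fold apart, and of 26 housekeeping genes 1 was, TBP, the TATA-binding protein (8.85 in HPAF1 and 9.98 in SU86.86). All 5 epithelial markers were above the filter in both lines, led by the keratin KRT18 at 14.95 and 14.82, and so were 11 of 15 duct markers in HPAF1 and 14 of 15 in SU86.86. Of the acinar markers, 0 of 5 reached the filter in either line. Fibroblast markers reached it for 5 of 8 genes in HPAF1 and 3 in SU86.86, with a summed intensity of 2293 and 1974, against 1974 to 3271 over all 5 lines, and the brightest of them was COL1A1 at 10.36 and 10.05. Leukocyte markers reached it for 3 of 7 and 2 of 7 genes, with summed intensities of 1449 and 895.

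Levels are given throughout as log2(intensity + 71.1), on which a difference of 1 is a 2-fold difference. The added constant shrinks the differences of dim genes, so folds of genes near background are understated. In HPAF1, 1016 genes were at least 2-fold higher than in SU86.86, 7.25% of those compared, and 1365 were at least 2-fold lower, 9.74%. In all 2381 genes, or 17.0%, were at least 2-fold apart, while the median difference of all genes was 0.05 and the median of its absolute size 0.36. A 4-fold difference was reached by 257 higher and 311 lower genes, an 8-fold one by 82 and 87, and a 32-fold one by 13 and 4. Across the 14010 genes, which are not independent of each other, the levels of both lines had a Pearson correlation of 0.82.

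Of the genes compared, 12089 lay above the filter in both lines, and among them 774 were at least 2-fold higher and 995 lower. The other 1921 passed only because 1 line was bright, so a difference in favour of that line was built in, and 242 of them were at least 2-fold higher and 370 lower. Where a gene that was at least 2-fold apart had several probe sets above the filter, 1212 genes, those probe sets had differences of 1 sign for 1058 (87.3%). For 2 genes another probe set was at least 2-fold apart in the opposite direction. Probe sets of a gene read the same RNA and are no replicates. Other probe sets of a gene are counted below only where they too reached the filter, and cross-matching probe sets are those that the array's own naming marks as able to detect more than 1 transcript.

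**Figure D1:**
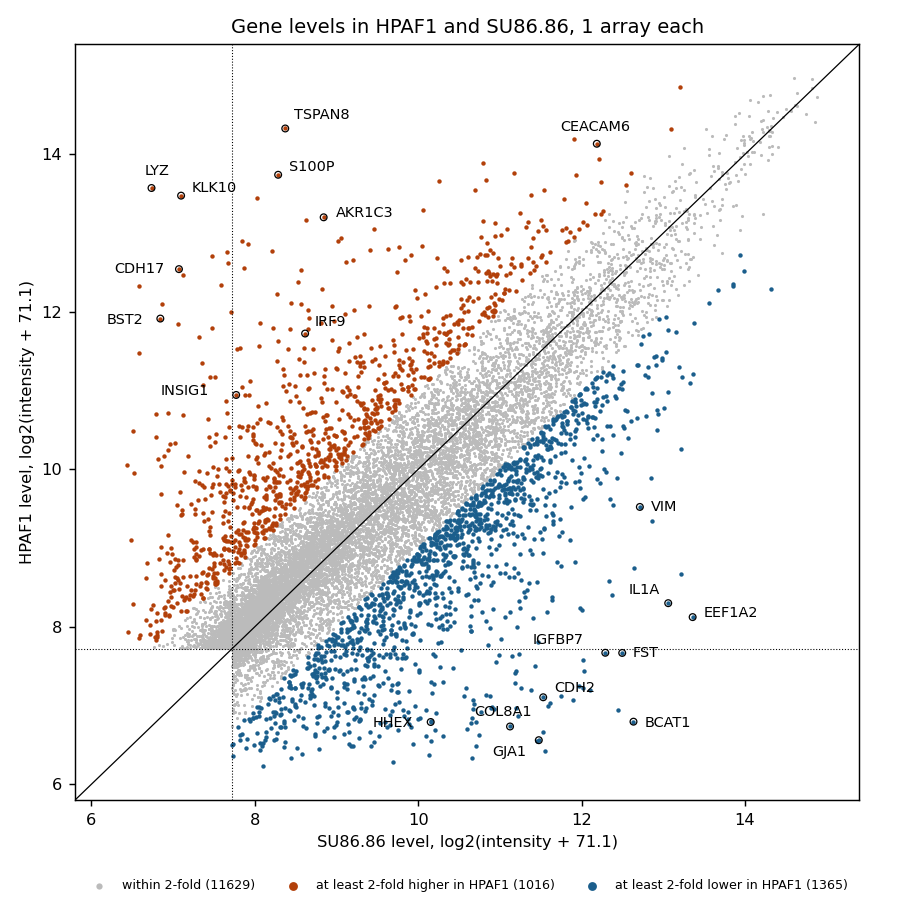
Each point is 1 of 14010 genes, with its level in SU86.86 on the horizontal and in HPAF1 on the vertical axis, both as log2(intensity + 71.1), and the dotted lines mark the level filter at 7.72. The 1016 orange genes were at least 2-fold higher in HPAF1 and the 1365 blue genes at least 2-fold lower, with LYZ farthest above the diagonal (difference 6.84) and BCAT1 farthest below it (-5.84).

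For genes at least 2-fold apart, the position of the pair was also read against the other 3 lines. Picking genes for a wide difference itself makes positions outside a range more frequent. The same shares over all genes compared were not counted, so these counts do not show that either line stood out. Nor were such shares counted for the highest and lowest lines given with the gene lists below. Of the 1016 genes higher in HPAF1, 405 (39.9%) had HPAF1 alone outside the range of PANC1, L3.6 and HPDE, 129 (12.7%) had SU86.86 alone outside it, 376 (37.0%) had both outside, and 106 (10.4%) had neither. HPAF1 lay at least 2-fold outside that range, above or below it, for 401 of them, and SU86.86 for 55. Of the 1365 lower genes, HPAF1 alone was outside for 453, SU86.86 alone for 257, both for 470 and neither for 185. There HPAF1 was at least 2-fold outside the range, in either direction, for 209 genes and SU86.86 for 187.

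The widest difference was that of LYZ, which encodes lysozyme, a bacteria-lysing enzyme of gastric and Paneth cells. Its intensity was 12102 in HPAF1 and 35.4 in SU86.86, or 13.57 and 6.73 on the log2 scale, and it stood at 6.78 in PANC1, 6.85 in L3.6 and 6.74 in HPDE. HPAF1 alone was above the filter, and the difference from SU86.86 was 6.84. KLK10, a secreted kallikrein-related protease, was at 13.47 in HPAF1 and 7.10 in SU86.86, with 7.32 in PANC1, 8.36 in L3.6 and 10.08 in HPDE. Here SU86.86 was the lowest of the 5 lines and HPAF1 the highest, 6.38 apart, although the gene's other probe set gave only 1.07. The tetraspanin TSPAN8 reached 14.33 in HPAF1 against 8.37 in SU86.86 and at most 7.45 elsewhere, so both lines were above the other 3. RNF128, a ubiquitin ligase, was at 12.32 and 6.58, and PANC1, L3.6 and HPDE lay between them at 8.72 to 10.05. CDH17, the liver-intestine cadherin, was at 12.54 in HPAF1 and between 6.99 and 7.08 in the other 4 lines. The calcium-binding protein S100P was at 13.74 and 8.29, with L3.6 (11.61) and HPDE (11.51) nearer to HPAF1 and PANC1 lowest (7.20). GDF15, a stress-induced cytokine, was at 12.46 and 7.12, and SU86.86 was the lowest of the 5 lines. The GDF15 difference of 5.34 ran from 2.12 to 6.35 over the alternative ways of processing listed further below. TMC5, a transmembrane channel-like protein, was at 12.76 and 7.65, and FOS, an immediate early transcription factor, at 12.62 and 7.67 with 10.09 in L3.6 and 10.15 in HPDE.

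On the other side, BCAT1, the cytosolic aminotransferase of branched-chain amino acids, had an intensity of 39.9 in HPAF1 and 6286 in SU86.86. PANC1 stood at an intensity of 4028, L3.6 at 1180 and HPDE at 1146. On the log2 scale HPAF1 and SU86.86 were at 6.79 and 12.63, so that HPAF1 was the only line below the filter. All 4 of its probe sets above the filter were lower in HPAF1, by 3.74 to 5.84. BASP1, a membrane-associated signalling protein, was at 6.95 and 12.45 on its brightest probe set but differed by 0.01 on the other. EEF1A2, a tissue-restricted form of elongation factor 1A, was at 8.12 in HPAF1 and 13.36 in SU86.86, and HPDE (8.40) resembled HPAF1 while PANC1 (12.22) and L3.6 (12.62) resembled SU86.86. PTX3, a secreted pentraxin of innate immunity, was at 6.42 in HPAF1 and 11.54 in SU86.86 with at most 8.28 elsewhere. GJA1, the gap junction protein connexin 43, was at 6.56 in HPAF1 and at 10.72 to 12.74 in the other 4 lines. HDGFL3, a relative of hepatoma-derived growth factor, was at 6.55 and 11.45, and CNN3, an actin-binding calponin, at 7.07 and 11.89. EFEMP1, an extracellular matrix fibulin, was at 7.25 and 11.97, and HPAF1 was again the lowest of all lines. SLC43A3, a purine base transporter, was at 7.20 and 12.11, and for it SU86.86 was the line that stood apart, since the other 3 lay between 7.07 and 9.57.

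**Figure D2:**
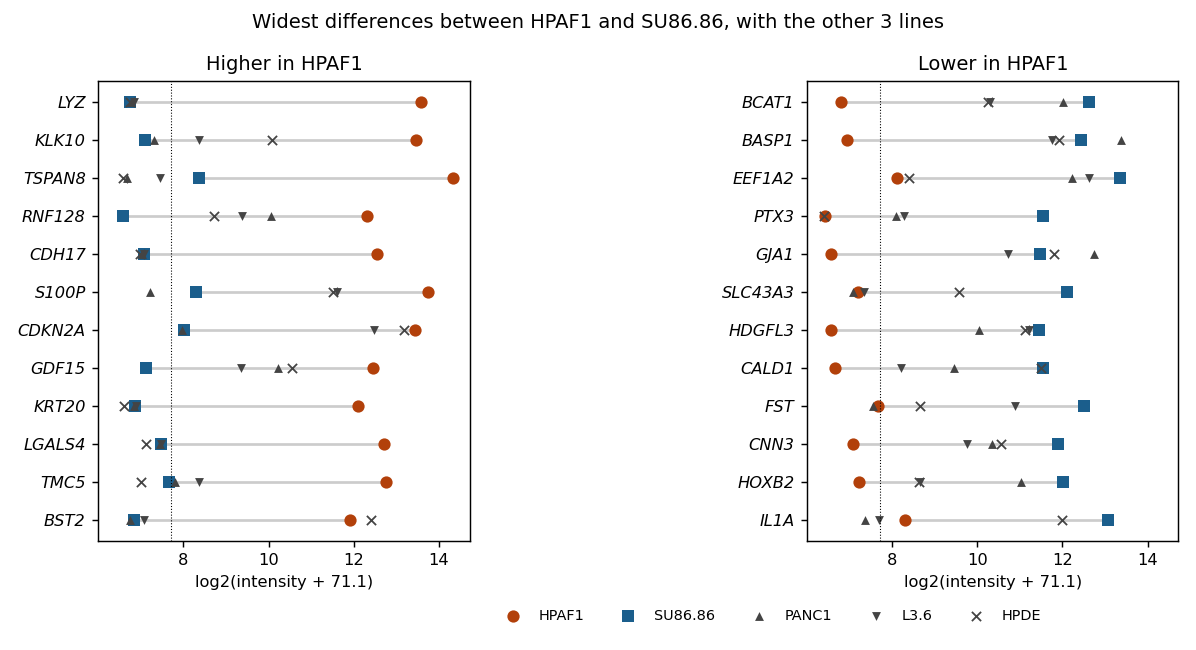
Levels, log2(intensity + 71.1), of the 12 genes with the widest difference in each direction, HPAF1 as circles, SU86.86 as squares and the other 3 lines as small dark marks, with the level filter (7.72) dotted. CDH17, KRT20 and LGALS4 were high in HPAF1 alone, while GJA1 and BASP1 were low in HPAF1 alone, and SLC43A3 was highest in SU86.86, at 12.11 against 9.57 or less elsewhere.

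Below, 45 gene lists are described by how many members were at least 2-fold higher or lower in HPAF1 and by the median difference, to be read against 7.25% higher, 9.74% lower and a median of 0.05 over all genes. The lists hold 1405 memberships, a gene counting once per list: 1110 were compared, 159 were below the filter in both lines, and 136 had no probe set with their symbol alone.

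Genes of the gastric and intestinal epithelium were among the widest apart. Of 31 listed genes 25 were compared, 13 were at least 2-fold higher in HPAF1 and 2 lower, and the median difference was 1.18. Beside LYZ and CDH17 these were KRT20, an intestinal keratin (12.10 in HPAF1 and 6.86 in SU86.86), LGALS4, a gut galectin (12.71 and 7.48), and ANXA10, a gastric annexin (12.90 and 7.84). VIL1, which encodes villin of the brush border, was at 11.79 and 7.48, although without the added constant another of its probe sets had the higher mean and gave 0.99. In PANC1, L3.6 and HPDE these 6 genes were dim as well, with no level above 8.02. Over the 11 members above the filter in both lines 3 were higher and 1 lower, and the list's median was 0.31 and 0.57 with no filter. TFF1, a trefoil peptide of gastric mucus, went the other way, at 8.60 in HPAF1 and 11.26 in SU86.86, where it was highest of all 5 lines.

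The mucins that were higher in HPAF1 were membrane mucins. Of 11 mucin genes compared 4 were at least 2-fold higher and 0 lower, with a median of 0.22. MUC1, a membrane mucin of duct cells, was at 11.52 in HPAF1 and 8.72 in SU86.86, and all 3 of its probe sets above the filter differed by 1.54 or more. MUC20 was at 11.53 and 9.02, MUC13 at 11.84 and 10.31, and MUC17 at 8.79 and 7.06, or a difference of 0.81 as the mean of all MUC17 probe sets. The secreted MUC6 and MUC2 and the membrane mucin MUC3A differed by 0.19, 0.22 and 0.28.

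Of the enzymes that build mucin-type sugar chains, 29 were compared, and 6 of them passed 2-fold upwards in HPAF1 and 5 downwards, with a median of 0.01. GCNT3, which branches the chains on mucins, was at 12.34 in HPAF1 and at 7.57 to 7.77 in the other 4 lines. The sulphotransferase CHST4 (10.94 and 7.93) and the galactosyltransferase B3GALT5 (10.60 and 8.17) were also higher in HPAF1. The enzymes that start the chains were divided: GALNT5 was at 11.34 in HPAF1 and 9.29 in SU86.86, while GALNT10 (7.98 and 10.88), GALNT14 (8.64 and 10.85) and GALNT6 (8.10 and 10.22) were lower. For GALNT10 another probe set gave 0.11.

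From a list of carcinoembryonic and surface tumour antigens 23 genes were compared, and not all of them encode surface proteins. Of these genes 11 were at least 2-fold higher in HPAF1 and 4 lower, with a median of 0.99 that became 0.52 with no filter. Along with TSPAN8 and S100P they included TM4SF4 (12.56 in HPAF1 and 7.87 in SU86.86) and TM4SF18 (11.17 and 7.45), of the same 4-span membrane family, and MSLN, mesothelin (10.94 and 7.88). MUC1 was a member of this list too. PROM1, the stem cell antigen CD133, was at 6.73 in HPAF1 and 9.90 in SU86.86 with at most 7.30 elsewhere, so the difference came with a high level in SU86.86 alone.

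Published signatures of this tumour's expression classes were compared as well. Of 21 classical signature genes compared 10 were at least 2-fold higher in HPAF1 and 1, TFF1, was lower, with a median of 0.75. Over the 11 above the filter in both lines 3 were higher and 1 lower, with a median of 0.31. The count includes LYZ, CDH17, TSPAN8 and others already given, together with CLRN3, a clarin membrane protein, at 10.32 and 6.96. Of 17 basal-like signature genes 4 were at least 2-fold higher and 4 lower, with a median of 0.22. CST6, cystatin E/M, was at 8.67 in HPAF1 and 13.22 in SU86.86, and S100A2 at 8.37 and 11.63, both lower in HPAF1. DHRS9, a retinol-oxidising enzyme, was at 12.28 and 8.82, the long noncoding RNA UCA1 at 13.76 and 11.17, and the growth factor carrier FGFBP1 at 10.49 and 8.30, all higher in HPAF1.

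Of 7 simple epithelial keratins, KRT20 and KRT23 were at least 2-fold higher in HPAF1, and the median was 0.50, or 0.32 without KRT20, which was below the filter in SU86.86. KRT23 was at 12.77 and 8.21. The keratins that define simple epithelium, KRT8, KRT18, KRT19 and KRT7, differed by 0.50, 0.13, 0.80 and -0.28. Of 20 genes of basal and squamous epithelium 3 were at least 2-fold higher and 5 lower, with a median of -0.28, and over the 10 above the filter in both lines 2 were higher and 2 lower. S100A9, a calprotectin subunit, was at 7.03 in HPAF1 and 11.61 in SU86.86, and the basal keratin KRT5 at 7.26 and 9.68, KRT4 at 6.97 and 9.36, and the squamous regulator TRIM29 at 7.91 and 9.94. In HPAF1 the first 3 of these were below the filter and TRIM29 just above it. SPRR3, a cornified envelope protein, was higher in HPAF1 at 10.21 against 8.18, but its other probe set gave -0.46.

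Of 30 transcription factors of endoderm and duct 9 were at least 2-fold higher in HPAF1 and 1 lower, with a median of 0.29. Over the 23 above the filter in both lines 3 were higher and 0 lower, with a median of 0.17. ELF3, an epithelial ETS factor, was at 11.85 in HPAF1 and 8.07 in SU86.86, HNF4G, a nuclear receptor of gut epithelium, at 9.48 and 7.11, TCF7L2, a WNT effector, at 11.94 and 10.04, and NR5A2 at 8.67 and 6.85. For HNF4G and NR5A2 HPAF1 was the only line above the filter. GATA6 was at 9.48 and 8.09, a difference of 1.38, or 0.73 as the mean of all its probe sets. HHEX, an early endoderm homeobox gene, was at 6.79 in HPAF1 and 10.15 in SU86.86, and HPAF1 was the lowest of the 5 lines. SOX9 and FOXA2, which mark duct and foregut endoderm, differed by -0.77 and 0.53.

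Ion and water transport genes of the duct were higher in HPAF1 for 7 of 18 compared and lower for 0, with a median of 0.66, or 0.18 with no filter. The water and glycerol channel AQP3 was at 12.63 and 9.12, the carbonic anhydrases CA12 at 11.38 and 8.27 and CA2 at 10.17 and 7.92, and the scaffold NHERF1 at 11.22 and 9.10. KCNE3, a potassium channel subunit, was at 10.29 and 7.45, although without the added constant another probe set had the higher mean and gave 0.84. The chloride channel gene CFTR itself differed by -0.10, but it was close to the level filter in both lines, at 7.64 in HPAF1 and 7.74 in SU86.86. Among 36 genes of epithelial adhesion and polarity 9 were at least 2-fold higher in HPAF1 and 0 lower, with a median of 0.36. The desmosomal cadherins DSC2 (11.39 and 8.54) and DSG2 (12.75 and 10.92), desmoplakin DSP (11.61 and 10.11) and the claudin CLDN4 (12.04 and 10.52, or a difference of 0.78 as the mean of its probe sets) were among them. E-cadherin, CDH1, was high in both lines at 12.90 and 12.73, and EPCAM at 13.71 and 13.19.

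Mesenchymal genes formed the list with the lowest median. Of 33 compared, 22 were at least 2-fold lower in HPAF1 and 1 was higher, and the median was -2.23. Over the 23 above the filter in both lines 12 were lower and 1 higher, with a median of -1.28. N-cadherin, CDH2, was at 7.10 in HPAF1 and 11.53 in SU86.86, and vimentin, VIM, at 9.52 and 12.71. Thus SU86.86 carried N-cadherin and vimentin beside a level of E-cadherin close to that of HPAF1. VIM was higher still in PANC1 (14.74) and L3.6 (13.84), and lowest in HPDE (8.02), whereas CDH2 was highest in SU86.86, and L3.6 (7.45) and HPDE (6.80) were below the filter like HPAF1. CALD1, an actin-binding caldesmon, was at 6.67 and 11.53, IGFBP7, a secreted IGF-binding protein, at 7.67 and 12.29, and MSN, the membrane-to-actin linker moesin, at 7.57 and 12.02. IGFBP7 was between 11.65 and 12.53 in the 4 lines other than HPAF1. TGFBI, a secreted matrix protein, was the 1 member higher in HPAF1, at 13.61 against 12.55. ZEB1, a repressor of CDH1, was below the filter in both lines, at 7.54 in each.

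The matrix followed the same direction in part. Of 26 collagens and matrix proteins compared 13 were at least 2-fold lower in HPAF1 and 0 higher. Their median of -0.89 was -0.10 over the members above the filter in both lines and -0.18 with no filter, and 4 of the 14 above it in both lines were at least 2-fold lower. COL8A1, a short-chain collagen, was at 6.73 in HPAF1 and 11.12 in SU86.86, with at most 7.34 in the other 3. Thrombospondin 1, THBS1, was at 8.57 and 12.33, fibronectin, FN1, at 8.23 and 11.24, the proteoglycan SPOCK1 at 6.94 and 10.09, and COL16A1 at 6.93 and 9.34. COL6A1 was at 8.77 and 11.74 on its brightest probe set, but the mean of its probe sets differed by -0.91. The integrins and laminins were nearly level, with 3 of 19 at least 2-fold lower, 0 higher and a median of -0.04. Those 3 were ITGB8 (8.01 in HPAF1 and 10.64 in SU86.86, or a mean difference of -0.78 over its probe sets), LAMC1 (9.31 and 10.96) and LAMB3 (10.87 and 12.31).

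Of 35 genes of matrix proteases and plasminogen activation 10 were at least 2-fold higher in HPAF1 and 2 lower, with a median of 0.22. The kallikreins KLK10 and KLK6 were both high in HPAF1, KLK6 at 12.86 against 7.92 and between 8.02 and 8.27 in the other 3 lines. The matrix metalloproteases MMP1, a collagenase, and MMP7, matrilysin, were at 12.11 and 13.30 in HPAF1 and at 8.44 and 10.05 in SU86.86. Both lower genes were below the filter in HPAF1. PLAT, the tissue-type plasminogen activator, was at 7.12 in HPAF1 and 11.75 in SU86.86, and ADAMTS1, a proteoglycan-cleaving protease, was at 6.77 and 9.89.

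**Figure D3:**
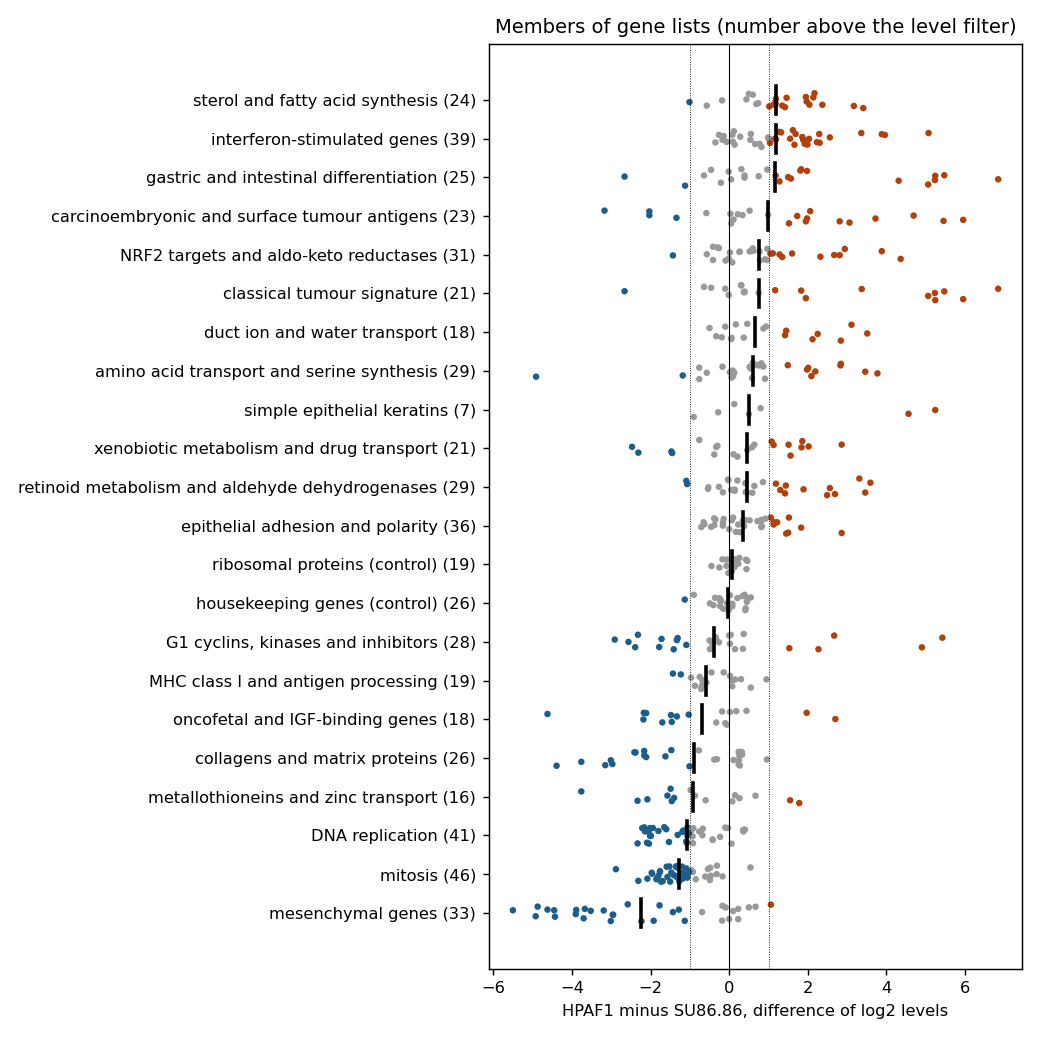
Each point is a compared member of a gene list, placed by its difference HPAF1 minus SU86.86 on the log2 scale, orange at least 2-fold higher, blue at least 2-fold lower and grey between. Black bars are medians. Shown are 22 of the 45 lists: among those with at least 5 compared members, the 8 with the lowest and the 12 with the highest median, and the ribosomal (0.07) and housekeeping (-0.02) genes as controls. Medians ran from -2.23 for mesenchymal genes to 1.19 for sterol synthesis and interferon-stimulated genes.

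Interferon-stimulated genes were higher in HPAF1 as a group. Of 39 compared out of 40, 23 were at least 2-fold higher and 0 lower, 34 were higher by any amount, and the median was 1.19. BST2, tetherin, which holds budding viruses at the cell surface, was at 11.91 in HPAF1 and 6.84 in SU86.86, and only HPDE (12.40) matched HPAF1. OAS1, a sensor of double-stranded RNA, was at 12.23 and 8.28, IFITM1, which blocks viral entry, at 12.90 and 9.02, and MX1, an antiviral dynamin-like GTPase, at 11.78 and 8.43. IFIT1, which binds viral RNA ends, was at 11.06 and 8.50, and RSAD2, viperin, at 9.61 and 7.31. For 17 of the 23 genes neither line lay outside the other 3, since HPDE was above HPAF1 and PANC1 or L3.6 below SU86.86. Over the list the median level was 10.38 in HPAF1, 9.09 in SU86.86, 7.88 in PANC1, 8.72 in L3.6 and 11.81 in HPDE.

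Factors that assemble on interferon-responsive promoters bind a repeated purine motif, and the promoters of the widest-apart members with the motif are shown for that reason. The motif searched was GAAANNGAA, on both strands, in the RefSeq window from 250 bases before to 50 bases after the start of each gene (assembly GRCh38.p14, sequence on the gene's strand, capitals mark the matches).
BST2, chr19:17405581-17405880, minus strand: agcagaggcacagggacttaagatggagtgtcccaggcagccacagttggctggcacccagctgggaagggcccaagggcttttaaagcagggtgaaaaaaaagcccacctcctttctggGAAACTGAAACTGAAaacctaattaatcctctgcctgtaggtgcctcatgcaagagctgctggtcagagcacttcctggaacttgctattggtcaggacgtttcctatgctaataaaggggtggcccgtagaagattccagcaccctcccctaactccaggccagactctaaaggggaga
IFITM1, chr11:313790-314089, plus strand: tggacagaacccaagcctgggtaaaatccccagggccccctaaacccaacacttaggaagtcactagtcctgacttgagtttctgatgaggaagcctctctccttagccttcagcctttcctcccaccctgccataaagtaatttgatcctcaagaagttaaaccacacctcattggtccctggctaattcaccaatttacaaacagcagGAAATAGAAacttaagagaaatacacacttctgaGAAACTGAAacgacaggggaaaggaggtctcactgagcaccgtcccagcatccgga
MX1, chr21:41420308-41420607, plus strand: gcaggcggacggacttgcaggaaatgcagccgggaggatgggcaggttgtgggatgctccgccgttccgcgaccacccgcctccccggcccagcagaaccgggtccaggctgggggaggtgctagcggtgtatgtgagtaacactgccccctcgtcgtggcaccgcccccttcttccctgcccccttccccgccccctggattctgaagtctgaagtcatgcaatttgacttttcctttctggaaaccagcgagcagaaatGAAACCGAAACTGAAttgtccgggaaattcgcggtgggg
The motif occurred in 23 of 32 interferon-stimulated genes that had a promoter in the table (71.9%), against 8.29% of all 27305 promoters. It was as frequent in members within 2-fold of each other, 9 of 12 (75.0%), as in those at least 2-fold higher in HPAF1, 14 of 20 (70.0%). A match is a match of letters and not a measured binding site. In the BST2 and MX1 promoters 2 matches overlapped, and those of BST2 began 130 and 124 bases before the start.

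Of the signalling genes upstream, 8 of 25 were at least 2-fold higher and 1 lower, with a median of 0.30. IRF9, which brings the STAT factors to these promoters, was at 11.72 in HPAF1 and 8.61 in SU86.86, with 12.05 in HPDE and at most 8.26 in PANC1 and L3.6. The adaptor MAVS was at 10.77 and 9.37, and the RNA sensors IFIH1 and RIGI at 9.74 and 9.79 against 8.47 and 8.17, although the mean of all RIGI probe sets differed by 0.43 and that of IFIH1 by 0.60. SOCS3, a feedback inhibitor of cytokine receptors, was lower in HPAF1, at 8.70 against 10.23, or by -0.16 on the probe set that was brightest without the added constant. IFNGR2, a chain of the interferon-gamma receptor, was at 11.68 and 10.48.

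Antigen presentation genes were not among the higher ones. Of 19 class I and processing genes 0 were at least 2-fold higher in HPAF1 and 2 lower, with a median of -0.58, or -0.12 without cross-matching probe sets. HLA-B, a classical class I chain, was at 12.71 and 13.94, and the peptide transporter subunit TAP2 at 9.75 and 11.18. Class I genes are near-copies of each other, and their probe sets may share signal. Of 14 class II genes 4 were lower, 0 higher, and the median was 0.04, or -0.62 when probe sets were averaged. All 4 were compared only because SU86.86 was above the filter, and over the 9 genes above it in both lines 0 were lower and 0 higher. HLA-DPB1 was at 6.96 in HPAF1 and 9.21 in SU86.86, HLA-DRA at 7.64 and 9.52, and HLA-DQB1 at 7.58 and 9.23, and SU86.86 was the highest of the 5 lines for all 3 of these. The mean of the HLA-DQB1 probe sets differed by -0.62. CIITA, their master regulator, differed by 0.08.

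Among cytokines and chemokines, several interleukins and chemokines were higher in SU86.86. Of 29 compared 12 were at least 2-fold lower in HPAF1 and 3 higher, with a median of -0.27. The interleukin-1 genes IL1A (8.30 in HPAF1 and 13.06 in SU86.86) and IL1B (7.99 and 11.21) were low in PANC1 and L3.6 too, at 7.36 to 8.18, and high in HPDE, at 11.99 and 10.64. IL11, a cytokine of the IL6 family, was at 6.84 and 10.66 (or a difference of -0.84 on the probe set brightest without the added constant), the neutrophil chemokine CXCL6 at 6.61 and 10.10, and VEGFC, a lymphatic growth factor, at 7.55 and 10.95. For CXCL6 SU86.86 alone was clearly above the filter. TNFAIP3, an NF-kB inhibitor and NF-kB target, was at 8.82 and 11.92. Secreted defence proteins were mixed, with 5 of 27 at least 2-fold higher, 7 lower and a median of -0.17. Complement C3 was at 8.11 in HPAF1 and 11.41 in SU86.86, and S100A9 and CST6, already given, were lower as well. CD55, which protects cells from complement, was at 13.89 and 10.79, and the elastase inhibitor SERPINB1 at 12.07 and 9.73.

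Growth factor receptors differed in ERBB3 rather than EGFR. Of 22 genes of the EGF receptor family and its feedback 3 were at least 2-fold higher and 3 lower, with a median of -0.12. ERBB3, the kinase-poor partner of ERBB2, was at 11.91 in HPAF1 and 8.66 in SU86.86, and HPAF1 was the highest of the 5 lines, HPDE following at 9.88. EGFR itself was at 11.99 and 12.11. The ligands HBEGF (10.45 and 11.86) and TGFA (11.17 and 12.24) were lower in HPAF1. HBEGF differed by -0.73 as the mean of its probe sets and TGFA by -0.97 after quantile normalization. The feedback inhibitors were divided. SPRY1 (9.86 and 7.87) and SPRY4 (10.51 and 8.88) were higher in HPAF1, and SPRY2 (8.99 and 10.27) was lower. Of 32 other receptor kinases and ephrins 3 were higher and 7 lower, with a median of -0.02. FGF2 was at 6.92 and 9.14 and its receptor FGFR3 at 9.96 and 7.93. GAS6, at 9.24 and 10.89, is the ligand of AXL, which was at 9.70 and 11.13, a difference of -0.88 as the mean of its probe sets. MET, the hepatocyte growth factor receptor, differed by 0.22.

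In the TGF-beta and BMP list members differed in both directions. Of 38 genes 12 were at least 2-fold higher in HPAF1 and 7 lower, with a median of 0.22. The BMP ligands BMP4 (11.11 in HPAF1 and 7.95 in SU86.86) and BMP7 (10.41 and 6.79) were higher in HPAF1, and so were BAMBI, a decoy receptor (by 4.29, with 7.70 in SU86.86), and ID1, ID2 and ID3, known BMP targets, by 1.73, 2.81 and 2.19. BMP7 was less certain, since without the added constant another probe set gave 0.31. ID1, ID2 and ID3 were named outside the rules for naming genes, and a link to the BMP ligands was not tested. Among the lower genes INHBA, the activin A chain, was at 7.23 and 11.25, and its antagonist FST, follistatin, at 7.67 and 12.50. GREM1, a secreted BMP antagonist, was at 7.28 and 11.18, and for INHBA and GREM1 the other 3 lines were at 8.20 or less. TGFBR2 was at 13.02 and 11.46, and SMAD4 at 9.37 and 8.63.

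WNT and Notch genes were mostly within 2-fold. In the WNT list 4 of 34 were at least 2-fold higher and 5 lower, with a median of 0.14. The secreted antagonists DKK3 (7.76 in HPAF1 and 10.86 in SU86.86) and SFRP1 (6.71 and 8.88) and the receptor FZD2 (7.35 and 9.41) were lower in HPAF1. RNF43, a ligase that removes WNT receptors, was at 10.34 and 8.01, and the receptor FZD5 at 11.28 and 8.99, or a difference of 0.92 without cross-matching probe sets. In the Notch list JAG1, a ligand, was higher in HPAF1 (12.22 and 10.08), DTX3, a ligase, was lower (7.09 and 9.01, or a mean difference of -0.36 over its probe sets), and the other 21 of 23 were within 2-fold.

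Sterol and fatty acid synthesis was the metabolic list most often higher in HPAF1. Of 24 compared 16 were at least 2-fold higher and 1, the elongase ELOVL6, was lower by 1.01, with a median of 1.19, and all 24 were above the filter in both lines. SCD, the fatty acid desaturase, was at 13.66 in HPAF1 and 10.25 in SU86.86, and INSIG1, the sterol-sensing brake on SREBP, at 10.94 and 7.77. ACSS2, which makes acetyl-CoA from acetate, was at 11.01 and 8.65, and the cholesterol synthesis genes MSMO1 and IDI1 at 12.52 and 11.92 against 10.35 and 9.77. STARD4, a sterol carrier, was at 10.85 and 8.82. HPAF1 had the highest level of the 5 lines for 19 of the 24 genes and SU86.86 the lowest for 8. The list's median level was 11.23 in HPAF1 and between 9.95 and 10.12 in the other 4 lines.

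Enzymes of retinoid and aldehyde metabolism were higher in HPAF1 for 11 of 29 and lower for 2, with a median of 0.46. ALDH2, the mitochondrial aldehyde dehydrogenase, was at 13.06 and 9.46, DHRS9 was given above, and ALDH1A1, which makes retinoic acid, was at 10.33 in HPAF1 and between 6.86 and 7.02 in the other 4 lines. RDH10, which oxidises retinol, was at 11.64 and 8.95, ALDH3A1 at 10.59 and 8.03, and PLAAT4, a retinoid-induced phospholipase, at 11.50 and 9.01.

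Targets of the oxidative stress factor NRF2 and the aldo-keto reductases were higher for 11 of 31 and lower for 1, GCLM, at 9.70 and 11.13. Their median was 0.77, or 0.51 without cross-matching probe sets. AKR1C3, a ketosteroid reductase that also makes prostaglandin F, was at 13.20 in HPAF1 and 8.84 in SU86.86, GPX2, a gut glutathione peroxidase, at 12.93 and 9.05, and AKR1B10 at 11.28 and 8.34. AKR1C1 and AKR1C2 were at 12.07 and 12.02 against 9.40 and 9.21, but these genes are near-copies, and AKR1C1 differed by 0.51 on probe sets that match it alone. CYP4F3 was at 9.41 and 7.10. The promoter of GPX2 is shown because it had the widest difference among members with the letters TGACNNNGC, the antioxidant response motif, searched on both strands and here present as its reverse complement.
GPX2, chr14:64942696-64942995, minus strand: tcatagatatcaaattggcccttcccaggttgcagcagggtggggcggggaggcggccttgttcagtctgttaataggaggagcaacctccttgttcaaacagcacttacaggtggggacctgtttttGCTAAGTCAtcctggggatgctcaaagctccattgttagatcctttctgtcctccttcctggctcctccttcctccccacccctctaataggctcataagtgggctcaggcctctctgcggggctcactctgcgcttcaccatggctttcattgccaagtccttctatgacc
These letters were in 8 of 24 promoters of the list (33.3%) and in 13.6% of all promoters, but also in 9 of 32 promoters of interferon-stimulated genes (28.1%) and 6 of 22 of epithelial adhesion genes (27.3%).

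Drug metabolism was mixed, with 8 of 21 genes at least 2-fold higher, 4 lower and a median of 0.46. CYP24A1, which inactivates vitamin D, was at 10.54 in HPAF1 and at 7.39 to 7.68 in the other 4 lines, and ABCG2, a drug efflux pump, at 9.77 and 7.92. The efflux pump ABCC4 was at 7.20 in HPAF1 and 9.67 in SU86.86 and the glutathione transferase GSTT1 at 7.08 and 9.39. CYP2S1 was at 9.66 and 7.82. SULT1A1 was at 11.31 and 9.28, but differed by 0.19 without cross-matching probe sets.

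Of 29 genes of amino acid transport and serine synthesis 9 were at least 2-fold higher in HPAF1, 2 were lower and the other 18 were within 2-fold, with a median of 0.60. Asparagine synthetase, ASNS, was at 12.66 and 9.19, the pseudokinase TRIB3 at 12.66 and 9.83, CTH, which makes cysteine, at 9.97 and 7.13, and DDIT3, the stress factor CHOP, at 11.42 and 9.23. For 15 of the 29 genes SU86.86 had the lowest level of the 5 lines. SLC1A1, a glutamate transporter, was at 10.71 in HPAF1 and at most 7.65 elsewhere. In the other direction the widest member of the list was SLC43A3, given above as a purine base transporter. Glycolysis and the hypoxia response were mostly within 2-fold, with 5 of 33 higher, 3 lower and a median of 0.07. Without cross-matching probe sets 16 of these genes could be compared, 1 was higher and 4 lower, and the median was -0.30. The stress and hypoxia genes DDIT4 (11.98 and 9.10), NDRG1 (10.55 and 7.92), BNIP3L (11.28 and 8.86), KDM3A (10.41 and 8.42) and PFKFB3 (11.23 and 9.72) were higher in HPAF1, each read from a cross-matching probe set. BNIP3, a mitophagy receptor, was at 6.62 in HPAF1, where it was below the filter, and at 9.51 in SU86.86, with at least 10.01 in the other 3 lines.

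Metallothioneins, which bind zinc and copper, were lower in HPAF1 on their brightest probe sets. Of 16 genes in the list 7 were at least 2-fold lower and 2 higher, and the median of -0.93 became 0.00 without cross-matching probe sets. MT1E was at 10.98 and 13.06, MT1M at 6.97 and 9.29 and MT1H at 11.20 and 12.77, but these are near-identical genes whose probe sets can share signal. The zinc importer SLC39A8 was at 7.44 and 11.20, while the zinc exporter SLC30A1 (11.49 and 9.70) and the importer SLC39A4 (10.20 and 8.65) were higher in HPAF1. Prostaglandin genes differed at single steps, with 3 of 14 higher, 4 lower and a median of -0.21. HPGD, which breaks down prostaglandins, was at 10.85 in HPAF1 and 8.54 in SU86.86, and AKR1C3 was the widest. The receptor PTGER4 (7.60 and 9.84), the transporter SLCO2A1 (8.02 and 10.15) and ALOX5AP, the 5-lipoxygenase activating protein (6.86 and 8.94), were lower. ALOX5 itself was at 9.48 and 8.01.

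Genes of nucleoside transport and of nucleoside drug activation were lower in HPAF1 for 9 of 23 and higher for 1, with a median of -0.12. DCK, the kinase that activates gemcitabine, was at 9.16 and 10.36, and the transporter SLC29A1, which carries it into cells, at 8.69 and 9.90; both were chosen for mention after their values were seen. The targets TYMS, thymidylate synthase (9.96 and 12.30), and the ribonucleotide reductase subunits RRM1 (10.04 and 12.09) and RRM2 (11.18 and 13.22) were lower, and so were UPP1, uridine phosphorylase (9.95 and 11.99), and DPYD, which breaks down pyrimidines (7.47 and 9.23, or a mean difference of -0.70 over its probe sets). NT5E, the surface enzyme CD73, was at 11.85 and 13.37.

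Mitotic genes were lower in HPAF1. Of 46 genes 34 were at least 2-fold lower and 0 higher, and the median was -1.28. FOXM1, the transcription factor of the G2 and M phases, was at 8.57 in HPAF1 and 11.45 in SU86.86, PRC1, which bundles spindle microtubules, at 9.88 and 12.19, and KIF23, a kinesin of the midbody, at 8.04 and 10.12. The kinetochore gene NDC80 was at 8.92 and 10.89, the kinase AURKB at 9.78 and 11.73, and the condensin subunit NCAPG at 8.82 and 10.67. MKI67, the proliferation antigen, differed less, at 9.40 and 9.87. HPDE was below HPAF1 for most of the list: for 2 genes HPAF1 was the lowest of the 5 lines, and for 28 of the 34 neither line of the pair was outside the other 3. The median level was 9.50 in HPAF1, 10.83 in SU86.86, 11.19 in PANC1, 11.05 in L3.6 and 8.59 in HPDE.

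DNA replication was lower as well, with 25 of 41 genes at least 2-fold lower, 0 higher and a median of -1.08. Here HPAF1 was the lowest of the 5 lines for 25 of the 41. Beside TYMS the widest were RFC3, MCM10, UHRF1 and GINS2. The clamp loader subunit RFC3 was at 9.41 in HPAF1 and 11.56 in SU86.86, and the replication factor MCM10 at 7.73 and 9.87. UHRF1, which maintains DNA methylation, was at 9.17 and 11.26, and GINS2 at 8.55 and 10.76. Probe sets disagreed for TYMS, where 1 of 3 above the filter gave 0.29, and for GINS2, which differed by 0.14 without cross-matching probe sets. PCNA, the sliding clamp, differed by -0.10 and MCM7 by -0.23. The promoter of TYMS is shown as the list member with the widest difference that held the E2F motif TTTCCCGC on either strand, which here lies as its reverse complement 39 bases before the start.
TYMS, chr18:657403-657702, plus strand: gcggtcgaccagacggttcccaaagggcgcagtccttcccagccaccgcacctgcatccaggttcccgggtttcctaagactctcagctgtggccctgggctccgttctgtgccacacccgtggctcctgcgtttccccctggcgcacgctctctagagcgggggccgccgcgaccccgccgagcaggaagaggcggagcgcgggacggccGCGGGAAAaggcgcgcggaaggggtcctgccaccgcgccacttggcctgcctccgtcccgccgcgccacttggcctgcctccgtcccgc
The motif was in 10 of 36 promoters of the list (27.8%), against 1.66% of all promoters and 2.50% of those of compared genes. It was in 3 of 32 promoters of interferon-stimulated genes (9.38%), 1 of 24 of NRF2 targets, and 0 of 18 of gastric and intestinal genes. For this motif the lower members and those within 2-fold were not counted apart, so it says nothing of the difference between the lines.

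Regulators of the G1 phase differed in both directions, 5 of 28 higher and 10 lower, with a median of -0.38. The inhibitor genes CDKN2B (p15) and CDKN2A (p16 and p14ARF), which neighbour each other, were at 11.48 and 13.45 in HPAF1 and at 6.59 and 8.02 in SU86.86. PANC1 was as low in both, at 6.53 and 7.97. Of 3 CDKN2A probe sets above the filter 2 were at least 2-fold higher, by up to 5.42, and the third gave -0.10. MXI1, an antagonist of MYC, was at 11.09 and 8.42, and MYC itself at 12.94 and 11.40. SKP2, which marks CDK inhibitors for degradation, was at 8.33 and 11.24, CDC25A, a phosphatase of CDK2, at 7.45 in HPAF1 (a difference of -2.56), and cyclin E1, CCNE1, at 8.34 and 10.73. CDC25A gave 0.07 on another probe set. Cyclin D1, CCND1, and the inhibitor CDKN1A differed by -0.32 and 0.37. Of 26 p53 targets and regulators 3 were higher and 2 lower, with a median of -0.06, and GDF15 was the widest. Without cross-matching probe sets 15 of these genes could be compared, 0 were higher and 1 lower, and the median was -0.18. SESN2, a sestrin, was at 9.63 and 8.14, PMAIP1, the death gene NOXA, at 12.09 and 10.94, AEN, a nuclease, at 9.48 and 11.45, and PLK2 at 10.59 and 11.96.

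**Figure D4:**
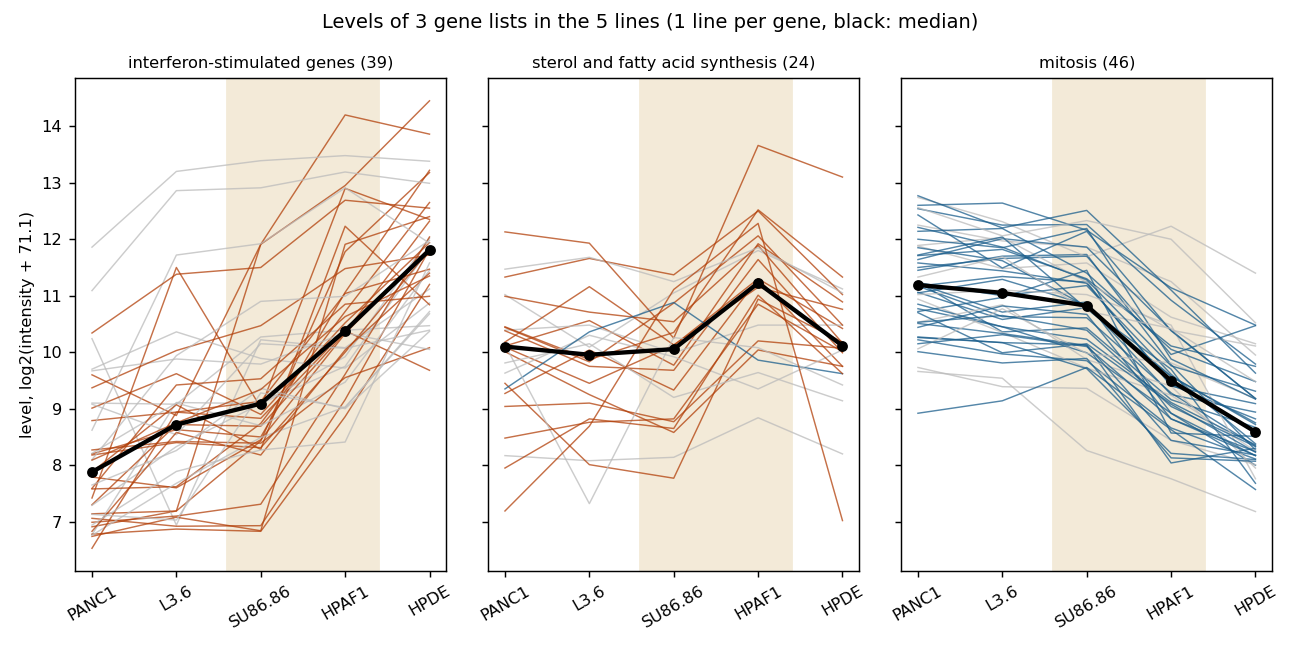
Levels, log2(intensity + 71.1), of the compared members of 3 gene lists in the 5 lines, 1 thin line per gene, coloured orange or blue where HPAF1 was at least 2-fold above or below SU86.86, with the medians in black and the pair shaded. The lines of the plot join cell lines that have no order. Interferon-stimulated genes had a median of 10.38 in HPAF1 and 9.09 in SU86.86, sterol genes 11.23 and 10.05, and mitotic genes 9.50 and 10.83, and HPAF1 stood above every other line only for the sterol genes.

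Among homeobox genes of the HOX clusters and their MEIS cofactors 19 of 40 listed were compared, 2 were at least 2-fold higher and 6 lower, with a median of -0.12. Over the 12 above the filter in both lines 2 were higher and 2 lower. All 6 lower genes belonged to the HOXB cluster, which sets positions along the body axis. HOXB2 was at 7.22 in HPAF1 and 12.02 in SU86.86, HOXB3 at 7.20 and 11.38, and HOXB7 at 7.50 and 11.43. Another probe set of HOXB3 gave -0.24. PANC1 resembled SU86.86 for these 3 genes, at 10.53 to 11.33, while HOXB2 was at 8.65 in L3.6 and 8.64 in HPDE. The HOXC cluster genes HOXC10 (9.86 and 8.12) and HOXC6 (10.13 and 8.86) were higher in HPAF1, and HOXB9 was lower (9.26 and 10.94). Of 18 oncofetal and IGF-binding genes 2 were higher and 9 lower. Their median of -0.68 was -0.08 over the 12 members above the filter in both lines, of which 2 were higher and 4 lower, and -0.22 after quantile normalization. Beside IGFBP7 the growth factor carriers were split, IGFBP1 at 10.83 and 8.14 and IGFBP6 at 12.36 and 10.39 being higher in HPAF1. LIN28B, which blocks let-7 maturation, was at 6.39 and 8.57, PEG10, an imprinted retrotransposon gene, at 9.12 and 11.30, and HMGA2, a chromatin protein of embryonic cells, at 10.68 and 12.79, although HMGA2 differed by 0.23 without cross-matching probe sets.

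Genes that differed were unevenly placed along the chromosomes. On chromosome 13, 84 of 251 genes (33.5%) were at least 2-fold lower in HPAF1 and 7 (2.79%) higher, with a median difference of -0.45. On chromosome 6 the lower genes came to 17.9% and on chromosome 4 to 16.3%. Higher genes came to 19.7% on chromosome 18, 14.6% on chromosome 20 and 14.5% on the X chromosome. RB1, the retinoblastoma gene on chromosome 13, was at 9.44 in HPAF1 and 10.84 in SU86.86, a difference of -1.41; it was chosen for mention after its value was seen.

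**Figure D5:**
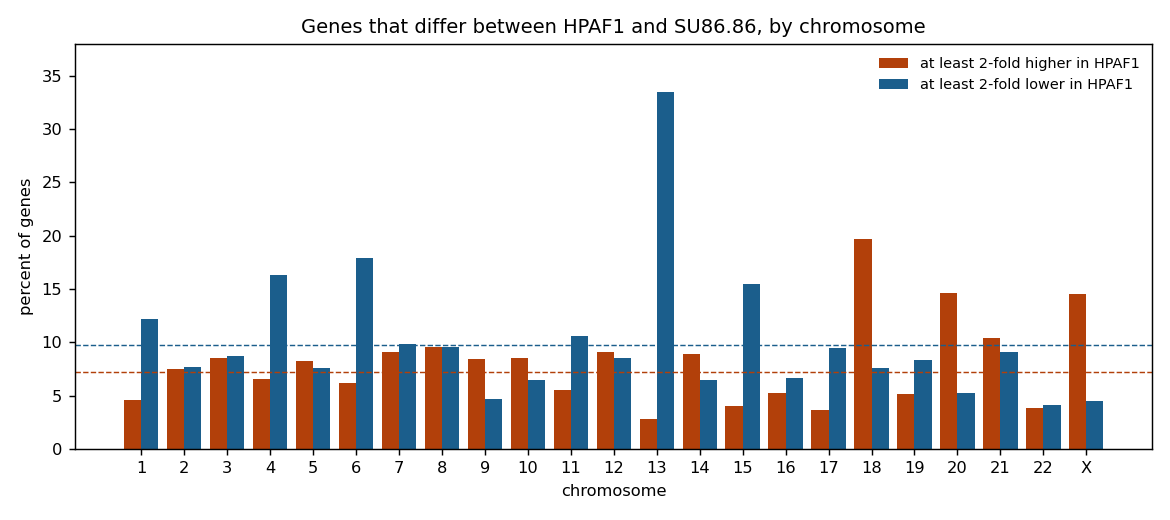
Bars give, for each chromosome, the percent of compared genes that were at least 2-fold higher (orange) or lower (blue) in HPAF1, and dashed lines the percent over all genes, 7.25 and 9.74. Chromosome 13 had 33.5% lower genes, and chromosome 18 had 19.7% higher genes.

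In runs of 25 neighbouring compared genes, of which there were 13423 with a median of 0.03, the lowest lay on chromosome 19 from SIRT2 to FBL. Its median difference was -1.47, with 14 genes at least 2-fold lower in HPAF1 and 0 higher. FBXO17, a substrate receptor of a ubiquitin ligase, was at 6.97 in HPAF1 and 10.89 in SU86.86, the transcriptional repressor EID2 at 9.10 and 11.86, TIMM50, a mitochondrial import subunit, at 9.89 and 12.43, and PAF1, a subunit of an elongation complex, at 8.69 and 11.22. Next came 2 runs on chromosome 13. From NALCN-AS1 to ARHGEF7 17 genes were lower and 0 higher (median -1.33), among them ITGBL1, an integrin beta-like protein, at 6.33 and 10.65, and TEX30 at 7.94 and 10.64. From OR7E104P to SPRY2 15 were lower and 1 higher (median -1.19), with KCTD12 at 6.83 and 9.87 and BORA, an activator of Aurora A, at 8.07 and 10.83. On chromosome 6 the runs from RRAGD to POPDC3 and from MED20 to SRF had medians of -0.93 and -0.92. They held POPDC3 (6.96 in HPAF1 and 10.67 in SU86.86), MANEA (6.96 and 9.59) and the ribosome assembly genes BYSL (9.84 and 11.92) and RRP36 (10.55 and 12.50).

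The runs with the highest medians were lower in size, at 0.76 to 0.89. On the X chromosome from PLS3 to STAG2 8 genes were at least 2-fold higher in HPAF1 and 0 lower, among them C1GALT1C1, the chaperone of O-glycosylation (11.21 and 9.58), and XIAP, an inhibitor of caspases (11.29 and 9.77). On chromosome 6 from H1-1 to ZNF184, the large histone cluster, 9 were higher and 0 lower. H2AC6 was at 11.07 in HPAF1 and 7.36 in SU86.86, H2BC12 at 12.82 and 9.77, H2BC5 at 11.53 and 8.60 and H2BC6 at 10.99 and 8.38. Histone genes are near-copies of each other, and their probe sets can share signal. The median differences of the replication and mitosis lists, given above, had the opposite sign. The run on chromosome 18 from DSC2 to MOCOS held the desmosomal cadherins given above, that on chromosome 2 from GALNT5 to NOSTRIN held DPP4, a surface peptidase (9.77 and 7.47), and that on chromosome 20 from CRLS1 to SNX5 held BMP2 (9.81 and 7.56), FLRT3 (10.02 and 7.64) and JAG1.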

How the data were processed

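Total RNA of 5 cell lines was hybridised to 1 Affymetrix array each. The authors deposited linear intensity values per probe set, with their summarisation, scaling and background correction not given in the sources used here. Medians of the arrays were close, so no further normalization was applied. The deposited intensities were transformed here as log2(value + 71.1), the constant being the 25th percentile of positive values over the 5 arrays, using Python 3.11.15, pandas 2.3.3 and numpy 2.4.6.

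Of 54675 probe sets, 41091 carried 1 gene symbol, 1801 several and 11721 none in the platform annotation, and 62 were controls. Symbols were updated through RefSeq (assembly GRCh38.p14), which matched 41037 and left 54 with the older symbol. That table also gave gene order, without coordinates. Each gene was read from its probe set with the highest mean over the 5 arrays. Genes were compared where the higher line reached the median of all probe sets (intensity 140, or 7.72 on the log2 scale).

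No test was made, since each line has 1 array, and the number of arrays limits the precision of every value. Genes were counted at a 2-fold difference, and the procedure was checked on simulated data. The simulation put changes wider than 2-fold into bright genes alone, so it says nothing of dim genes or of differences near 2-fold. Genes were named by rule if among the 15 widest in each direction, or the 10 widest in each direction with both lines above the filter. The rules also took up to 6 widest members of each list, up to 4 genes of each run of 25 neighbours, and a fixed set of pancreatic cancer genes. Members within 2-fold are named as contrast. DCK, SLC29A1 and RB1 are marked in the text as chosen otherwise. Further genes at least 2-fold apart were also named outside the rules, among them TFF1, CLRN3, TGFBI, ELOVL6, GCLM, HOXC6, ID1, ID2 and ID3. Their differences were not followed gene by gene over the alternatives. The members, lists and rules were chosen with earlier results of these data known. Promoter sequences were searched for motifs by letters. Alternatives were other added constants, quantile normalization, median centring, no filter or a filter on both lines, the mean of all probe sets of a gene, and leaving out cross-matching probe sets.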

Additional observations from a re-analysis of the deposited data

How the results depend on the processing

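All alternatives listed were run and kept both counts within 1.5 times of the values above. Genes at least 2-fold higher and lower in HPAF1 came to 1287 and 1642 without the added constant, 863 and 1152 with the constant doubled, 1119 and 1217 after quantile normalization, 1018 and 1360 after centring each array, 1020 and 1374 with no level filter, 774 and 995 with both lines above the filter, 764 and 1034 when all probe sets of a gene were averaged, and 754 and 1052 without cross-matching probe sets. Of the genes named by rule, 3 changed direction, all in the last setting. PALLD, an actin-associated protein, went from -3.79 to 0.23, GINS2 from -2.21 to 0.14 and HMGA2 from -2.11 to 0.23. Of the 45 list medians, 7 stayed within 1.5 times in all alternatives: those of interferon-stimulated genes (0.99 to 1.23), interferon signalling, sterol synthesis (0.87 to 1.25), amino acid transport, G1 regulators, DNA replication (-1.22 to -1.02) and mitosis (-1.38 to -1.12). In 12 the sign changed or the median reached 0 in some alternative. The median of pancreatic endocrine and acinar markers went from -0.76, over 3 genes, to 0.07 with no filter, and that of metallothioneins and zinc transport from -0.93 to 0.00 without cross-matching probe sets. The other 10 had medians between -0.28 and 0.07, and their ranges included -0.62 to 0.11 for MHC class II, -0.47 to 0.18 for basal and squamous genes, -0.15 to 0.30 for HOX genes, -0.22 to 0.27 for prostaglandin genes, -0.30 to 0.08 for glycolysis and -0.09 to 0.28 for integrins. The remaining 26 kept their sign but moved by over 1.5 times, among them gastric and intestinal genes (0.31 to 1.39), surface antigens (0.52 to 1.52), the classical signature (0.31 to 1.16), duct transport (0.18 to 1.04), epithelial adhesion (0.35 to 0.76), proteases (0.21 to 0.56), mucins (0.18 to 0.48), retinoid genes (0.28 to 0.79), drug metabolism (0.19 to 0.56), the EGF receptor family (-0.30 to -0.07), cytokines (-0.37 to -0.12), mesenchymal genes (-2.68 to -1.28), collagens (-1.12 to -0.10) and oncofetal genes (-1.03 to -0.05). The causes were not tested. No paired analysis was possible because each line has 1 array and the labels carry no replicate numbers. Signal near background limits what dim genes can show.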

Other observations

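Probe sets that the annotation leaves unnamed also differed between the lines. Of 11721 unlisted probe sets 3590 were above the level filter in HPAF1 or SU86.86. Among these 118 (3.29%) were at least 2-fold higher in HPAF1 and 164 (4.57%) lower. The 7.25% and 9.74% of named genes are not a like measure, since each gene there was read from its brightest probe set. The widest stood at 3.71 and -4.97. Of 1801 probe sets with several symbols 1229 were above the filter, 86 of them higher and 92 lower.

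Further motifs were searched in the same promoter windows. The E-box CAGGTG, on both strands, was in 10 of 18 promoters of the gastric and intestinal list (55.6%), 10 of 22 of the epithelial adhesion list (45.5%) and 20.6% of all promoters. The HNF4 motif CAAAGTCCA was in 0 of 18 gastric and intestinal promoters and 0.359% of all, and the HNF1 motif GTTAATNAT in 1 of 18 and 0.751%. These windows are 300 bases long and say nothing of sites outside them.

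Of the list of fibroblast, endothelial and leukocyte markers, 12 of 26 were compared, 2 were at least 2-fold higher in HPAF1 and 0 lower, with a median of 0.24. These were LYZ and CD14, a receptor for bacterial lipopolysaccharide, at 8.72 in HPAF1 and 7.01 in SU86.86. In the endocrine and acinar list, of which 3 genes were compared, 1 was lower and 0 higher, and PRSS3, a trypsinogen, was at 9.73 and 11.13.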
